A study of Mus musculus with 11 samples.

Results

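Round spermatids and spermatocytes of wild type mice were compared across all probes of an expression array. The 6 arrays whose sample titles name wild type spermatids 1 to 3 or wild type spermatocytes 1 to 3 were used for the comparison, out of 11 arrays in the series. The tested cells were round spermatids, the haploid cells that follow the meiotic divisions, and they were set against pachytene spermatocytes, which are in the long prophase of the first division. Both came from testes of C57Bl/6 males of 8-12 weeks that carried the normal *Dnmt3L* alleles. The other arrays hold 3 spermatid and 2 spermatocyte preparations of *Dnmt3L* heterozygous males of the same strain and age. They also entered the filter on dim probes, the estimate of the spread and the adjustment of p-values, and so bear on which probes were called here. Cells were sorted by size with centrifugal elutriation, and each preparation pooled 10 mice. Per the methods, cells of each fraction were counted and only preparations above a set purity were kept, so some cells of other types may be present. The p-values measure the spread among such preparations. The methods kept both fractions after elutriation, so spermatid and spermatocyte preparations may share mice, which the main fit did not take into account. All spermatid arrays sat on one BeadChip and all spermatocyte arrays on another, so a chip difference and a cell type difference cannot be told apart. In such fractions, fewer cells of a type and less RNA per cell cannot be told apart either.

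In pachytene spermatocytes, homologous chromosomes are held together by the synaptonemal complex and exchange segments, while the X and Y chromosomes lie in a condensed, transcriptionally silent body. After both divisions the haploid spermatid builds an acrosome, grows a flagellum, and later replaces its histones with transition proteins and protamines. Many of its transcripts are made early and stored for translation in the elongating cell. Some of the factors that lead transcription in these stages are found mainly in germ cells.

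Levels are log2 values of the array's scale, on which every array had a median of 6.87, a lowest value of 6.40 and a highest of 13.99. Values near 6.9 may hold no signal. The transformation used by the authors compresses low values, so that folds of dim probes are understated. Differences are spermatids minus spermatocytes and are followed by ± the standard error (SE) of the fit, with 3 arrays in each group. A probe was called when its adjusted p was under 0.05, and calls described as held stayed under it whichever of the 11 arrays was left out. Near-identical copies, such as clustered histone genes, the globins and the multicopy X and Y genes, may share a probe.

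Spermatid arrays correlated with each other across probes at r = 0.959 to 0.983, spermatocyte arrays at 0.985 to 0.991, and arrays of the different cells at 0.831 to 0.940. Spermatid array 2 was the closest to the spermatocytes, with r = 0.923 to 0.940, against 0.874 to 0.898 for array 1 and 0.831 to 0.864 for array 3. It read nearest to the spermatocyte mean for 78.0% of the probes called higher and 80.4% of those called lower. The marker lists were chosen with earlier results of these data known, so they are no independent check of the labels. Markers of round spermatids were called higher in 26 of 29 and lower in none. Of 18 pachytene markers, 4 were called lower in spermatids and 2 higher, with 1 held call in each direction, and the other 12 were not called. Markers of some other cells were called higher in the spermatid fraction, whereas no Sertoli, Leydig or endothelial marker was. Macrophage and blood markers were called higher in 9 of 10, of which 5 calls held, and their mean level was 9.76, 8.71 and 10.17 on the spermatid arrays, against 7.35, 7.13 and 7.28 on the spermatocyte arrays. Peritubular markers were called higher in 4 of 8 (2 held), with means of 8.92, 8.32 and 9.29 in spermatids and 7.51, 7.38 and 7.51 in spermatocytes. Spermatogonial markers were called higher in 6 of 20 and lower in 1, of which only 2 higher calls held, at means of 7.61, 7.52 and 7.77 in spermatids and 7.40, 7.34 and 7.30 in spermatocytes. The part of such cells in the results was not tested.

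Of 27986 probes tested, 7546 (27%) were called between the cell types. In spermatids 3207 probes (11.5%) were higher and 4339 (15.5%) were lower. Without spermatid array 2 the counts were 3527 higher and 4470 lower. The total fell to 4241 calls without spermatid array 1, to 4758 without spermatid array 3, to 4376 without spermatocyte array 2 and to 4859 without spermatocyte array 3. Increases were fewer but larger than decreases. All arrays were normalised to the same distribution, so the counts and sizes of increases and decreases are not independent of each other. The median size was 1.09 among the higher probes and 0.71 among the lower ones, and 615 higher probes but only 58 lower probes differed by at least 2 on the log2 scale. A change of at least 3 was found in 36 higher probes and 1 lower probe. The arrays of the groups did not overlap for any called probe, as was also the case for 21.2% of all tested probes in the higher and 30.9% in the lower direction. By gene, with the brightest probe of each of 14181 named genes, 2016 (14.2%) were higher and 2390 (16.9%) lower. Of these, 1182 higher genes (58.6%) and 1177 lower genes (49.2%) had calls that held, which is 8.34% and 8.3% of all named genes tested. Genes are grouped below by 31 gene lists, with 1263 entries of which 991 passed the filter on dim probes, and by families of symbols. Counts of list members are to be read against the shares of 14.2% and 16.9%, and they leave out genes that did not pass.

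**Figure D1:**
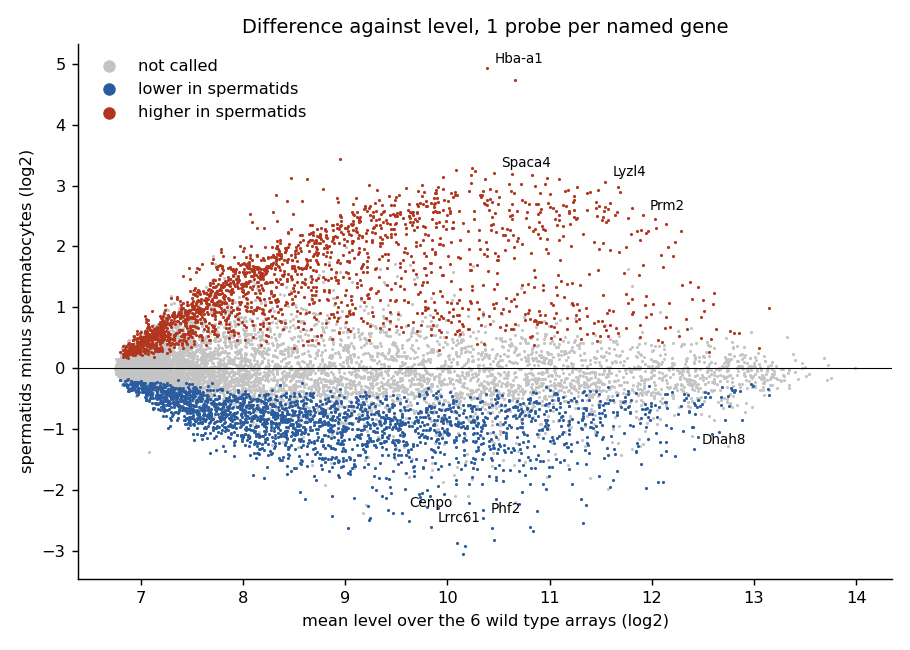
Difference between wild type spermatids and spermatocytes (log2, y axis) against the mean level over the 6 arrays (log2, x axis), 1 point for each of 14181 named genes, coloured by call. Increases reach 4.93 (*Hba-a1*) and decreases reach -3.06, and few genes with a mean near the top of the scale were called.

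The 20 largest increases were at least 3.03 in size, held under every left-out array, and were called in the same direction between the heterozygous fractions. Several were proteins of the sperm surface and acrosome. *Spaca4*, an acrosomal membrane protein of the Ly6 family that helps mouse sperm bind the zona pellucida, had levels of 12.18, 11.71 and 12.29 on spermatid arrays 1, 2 and 3, against 9.12, 8.54 and 8.88 on the spermatocyte arrays. The difference was 3.21 ± 0.26, a 9.26-fold increase (adjusted p = 0.000388). *Llcfc1*, which sperm need to fuse with the egg, read 11.95, 11.56 and 12.15 in spermatids and 8.93, 8.37 and 8.52 in spermatocytes, a difference of 3.28 ± 0.29. For both genes the lowest spermatid array lay above the highest spermatocyte array by over 2 log2 units, with array 2 the lowest in each cell type. The list also held the small membrane protein *Pdzk1ip1* (3.24 ± 0.27), the protamine-like gene *Prm3* (3.17 ± 0.40), the lysozyme-like acrosomal protein *Lyzl4* (3.06 ± 0.20), and the histone genes *H2ac11* and *H2ac13*. Another 7 of the 20 had symbols ending in Rik, which mark genes named from cDNA clones.

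The 3 largest increases of all were of genes known from other cells. *Hba-a1*, an alpha globin of red blood cells, had levels of 13.46, 11.86 and 13.22 in spermatids, against 7.83, 7.69 and 8.26 in spermatocytes, and *Hbb-bs*, a beta globin, rose by 4.73 ± 0.28. *Dcn*, the matrix proteoglycan decorin, was at 10.75, 9.30 and 11.93 in spermatids and 7.35, 6.86 and 7.49 in spermatocytes. *Lyz2*, the lysozyme of macrophages, rose by 3.12 ± 0.37, and *Cyp26b1*, an enzyme that degrades retinoic acid, by 3.11 ± 0.59. In each of these the spermatids varied more than the spermatocytes, and array 2 had the lowest spermatid level.

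The 20 largest decreases were at least 2.32 in size, and they were less even than the increases. Their median SD was 0.98 among the spermatid arrays and 0.18 among the spermatocyte arrays, spermatid array 2 was nearest to the spermatocytes in all 20, and 3 of the calls held. The largest was *Lypd10*, of the Ly6 and uPAR family, at 8.13, 10.09 and 7.65 in spermatids and 11.35, 12.04 and 11.64 in spermatocytes (-3.06 ± 0.73, adjusted p = 0.0286). This call ended without any 1 of the spermatocyte arrays of either genotype or of spermatid arrays 1 and 3, with a largest adjusted p of 0.0958. The 3 held calls were of *Lrrc61*, *Phf2* and *Cenpo*. *Cenpo*, a subunit of the inner kinetochore, had levels of 8.25, 9.04 and 7.81 in spermatids and 10.60, 10.85 and 10.77 in spermatocytes (-2.37 ± 0.36, adjusted p = 0.00497), and its other probe was also called lower. *Phf2*, a demethylase of histone H3 lysine 9, read 8.72, 10.02 and 8.62 in spermatids and 11.78, 11.36 and 11.61 in spermatocytes (-2.46 ± 0.44). *Lrrc61* fell by 2.61 on the log2 scale. All of these decreases were seen between the heterozygous fractions as well, in sign for all 20 and as a call for 4.

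Promoters of genes that moved in the opposite directions differed in base composition. Windows of 300 bases, from 250 before to 50 after the start of the RefSeq transcript (build GRCm38.p6), were given for 11416 (80.5%) of the named genes tested. The window held a median of 12 CG dinucleotides for the 1645 higher genes with a window, 22 for the 1950 lower genes, and 18 for all genes tested. At most 1 CG was found in 9.6% of the higher and 1.2% of the lower windows, against 6.1% of all genes tested. For the 163 genes with windows among the 200 largest increases the median was 4. The TATA motif, TATAAA on either strand, was in 10.6% of higher and 6.36% of lower windows, 9.62% of all genes tested and 14.2% of all 27025 windows. The full cAMP response element TGACGTCA, a palindrome that CREM binds, was in 3.22% of the higher and 3.18% of the lower windows, 2.79% of all genes tested and 1.88% of all windows. GTTGCC, the core of the X-box that RFX factors bind, was on either strand in 15.3% of higher windows, 14.5% of lower windows, 13.2% of all genes tested and 12.7% of all windows. These are matches of letters and not measured sites. Promoters of *Spaca4* and *Llcfc1*, which rose, and *Cenpo* and *Phf2*, which fell, are shown as examples chosen after their values were seen, in lower case with each CG in capitals. They lie at chr7:45725767-45726066 (- strand), chr6:41684181-41684480 (+ strand), chr12:4233916-4234215 (- strand) and chr13:48870836-48871135 (- strand) and hold 5, 2, 17 and 63 CG.
Spaca4: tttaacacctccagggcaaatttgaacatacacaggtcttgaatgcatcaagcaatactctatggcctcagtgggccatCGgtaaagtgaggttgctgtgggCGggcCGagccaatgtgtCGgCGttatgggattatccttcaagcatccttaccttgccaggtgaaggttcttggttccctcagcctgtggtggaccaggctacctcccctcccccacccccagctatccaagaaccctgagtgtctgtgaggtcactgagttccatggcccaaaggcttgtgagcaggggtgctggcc
Llcfc1: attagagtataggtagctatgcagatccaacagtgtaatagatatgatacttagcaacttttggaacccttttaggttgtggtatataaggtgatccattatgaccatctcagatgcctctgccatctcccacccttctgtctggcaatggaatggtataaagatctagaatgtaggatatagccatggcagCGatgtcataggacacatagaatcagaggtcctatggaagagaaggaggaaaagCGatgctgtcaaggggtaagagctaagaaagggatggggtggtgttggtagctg
Cenpo: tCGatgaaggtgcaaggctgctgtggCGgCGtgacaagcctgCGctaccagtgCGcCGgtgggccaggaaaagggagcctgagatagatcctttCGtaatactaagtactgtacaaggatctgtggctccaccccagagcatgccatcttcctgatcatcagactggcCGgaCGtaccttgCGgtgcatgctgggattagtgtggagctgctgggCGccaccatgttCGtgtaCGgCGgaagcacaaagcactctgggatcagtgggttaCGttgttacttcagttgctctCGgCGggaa
Phf2: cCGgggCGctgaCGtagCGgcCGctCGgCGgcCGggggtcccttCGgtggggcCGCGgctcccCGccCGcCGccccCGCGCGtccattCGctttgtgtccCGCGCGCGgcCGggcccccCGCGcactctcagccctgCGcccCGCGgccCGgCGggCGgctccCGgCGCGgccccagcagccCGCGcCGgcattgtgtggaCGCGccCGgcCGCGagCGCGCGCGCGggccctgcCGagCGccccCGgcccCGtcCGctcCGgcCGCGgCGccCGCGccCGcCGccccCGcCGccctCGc

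Genes for sperm chromatin were called mainly in the higher direction. Of 17 listed genes tested, 8 were higher and 3 lower, and 6 of the higher calls but none of the lower ones held. *Prm2*, 1 of the main protamines, had levels of 13.23, 12.90 and 13.37 in spermatids, against 11.55, 9.37 and 11.04 in spermatocytes (2.51 ± 0.45, adjusted p = 0.00965). *Tnp2*, a transition protein, rose by 1.95 ± 0.37. *Prm1* read 12.82, 12.91 and 13.16 in spermatids and 12.20, 11.20 and 12.08 in spermatocytes. Its call (1.14 ± 0.29) ended without 8 of the 11 arrays, taken 1 at a time, namely spermatocyte arrays 2 and 3, any wild type spermatid array, any heterozygous spermatocyte array or the first heterozygous spermatid array, with a largest adjusted p of 0.104. *Tnp1* was not called, at 12.79, 11.84 and 12.79 in spermatids and 11.66, 10.09 and 11.64 in spermatocytes (adjusted p = 0.0766). In these 4 genes spermatocyte array 2 read lowest, and the spermatocyte arrays spanned about 1 log2 unit or more. Away from the top of the scale, *Chd5*, a remodeller needed for histone removal, rose by 2.35 ± 0.36, the spermatid linker histone *H1f7* by 2.09 ± 0.33, and the H2B variant *H2bl1* by 2.18 ± 0.33.

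Of 66 core and variant histone genes tested, 33 were higher and 7 lower, with 27 and 4 calls that held. *H2ac11*, a histone H2A gene of the chromosome 13 cluster, was at 12.53, 12.45 and 12.64 in spermatids and 9.83, 9.04 and 9.38 in spermatocytes (3.12 ± 0.34). *H2ac15* rose by 3.01 ± 0.22 and *H2ac12* by 2.84 ± 0.29. The X-linked H2A variant gene *H2ap* rose by 2.90 ± 0.39. In the other direction, *H2az1*, which encodes the common H2A.Z variant, was at 7.25, 7.36 and 7.10 in spermatids and 8.09, 8.03 and 8.22 in spermatocytes (-0.88 ± 0.08). *Macroh2a2* fell by 1.28 on the log2 scale and *H4c2* fell by 1.63. Clustered histone genes are near copies of each other, so the number of separate genes behind these calls is uncertain.

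Acrosome and zona binding genes were higher in 14 and lower in 2 of 32 tested, with 13 and 1 held calls. *Calr3*, a germ cell calreticulin that folds acrosomal proteins, had levels of 12.42, 12.21 and 12.40 in spermatids and 9.84, 9.17 and 9.87 in spermatocytes (2.72 ± 0.26). *Lyzl6*, a further lysozyme-like protein, rose by 2.71 ± 0.17. *Golga3*, a Golgi scaffold, was lower in spermatids (-0.85 ± 0.14), with levels of 11.48, 11.83 and 11.38 against 12.36, 12.41 and 12.45 in spermatocytes. Of 11 genes listed for sperm-egg fusion 5 passed the filter, and 2 of them were called, both higher: *Llcfc1*, described above, and *Dcst1* (2.57 ± 0.21). ADAM metalloprotease genes, several of which encode sperm surface proteins, were higher in 12 and lower in 2 of 26. *Adam29* and *Adam1a* each rose by 2.37, whereas *Adam17*, the sheddase of somatic cells, fell by 0.61 on the log2 scale. Only 5 of these 12 higher calls and 1 of the lower held. In the Ly6 and uPAR family, to which *Spaca4* and *Lypd10* belong, 5 of 18 were higher and 4 lower, and *Ly6g6c* rose by 2.69 ± 0.22. None of the 4 lower calls held.

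Genes of the flagellum did not move together. The fibrous sheath, a cage around the tail that carries glycolytic enzymes and protein kinase A anchors, had 7 of 16 genes higher and 1 lower, and 6 of the higher calls held. *Akap3*, 1 of its main anchoring proteins, was at 12.63, 12.51 and 12.73 in spermatids and 10.19, 9.58 and 9.79 in spermatocytes (2.77 ± 0.19, adjusted p = 0.000216). *Akap4*, its X-linked partner, rose by 2.04 ± 0.29, and *Akap1*, an anchor of the mitochondrial outer membrane, by 2.97 ± 0.24. Outer dense fibre and tail assembly genes were higher in 10 and lower in 3 of 27. *Odf1* rose by 1.85 ± 0.18, *Odf3* by 2.51 ± 0.17, and the SUN domain gene *Sun5*, which fastens the tail to the nucleus, by 2.91 ± 0.21. *Iqcg*, of the axonemal dynein regulator, had levels of 8.13, 8.75 and 7.74 in spermatids and 9.94, 10.01 and 9.72 in spermatocytes (-1.68 ± 0.27), and the centriolar satellite gene *Cep131* fell by 0.85. *Odf2* and *Odf4* were near the top of the scale in both cell types, at means of 13.04 and 13.16 in spermatids and 12.96 and 13.35 in spermatocytes, and were not called.

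Of 52 genes for dynein motors, spokes and related axonemal parts, 17 were lower and 6 higher in spermatids, with 11 and 5 held calls. *Dnah8*, an outer arm dynein heavy chain, was at 11.64, 11.84 and 11.78 in spermatids and 13.08, 13.01 and 13.17 in spermatocytes (-1.33 ± 0.25). *Zmynd10*, which assembles dynein arms in the cytoplasm, fell by 1.43 and *Cfap57* by 1.13. *Cfap100*, in contrast, rose by 2.23 ± 0.18. Intraflagellar transport and BBSome genes, which carry cargo along a growing cilium, were lower in 13 and higher in 2 of 35, with 10 and 1 held calls. *Bbs9*, a BBSome subunit, read 8.14, 8.49 and 7.98 in spermatids and 9.38, 9.42 and 9.73 in spermatocytes (-1.30 ± 0.16), and *Ttc8*, another subunit, fell by 1.68. The kinesin *Kif17* rose by 1.91 ± 0.31. *Ift80* had probes called in both directions, with the brighter at -1.73 ± 0.31 and the other at 0.61 ± 0.17. *Meig1*, which is needed to build the axoneme, was not called, with means of 13.02 in spermatids and 13.22 in spermatocytes.

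**Figure D2:**
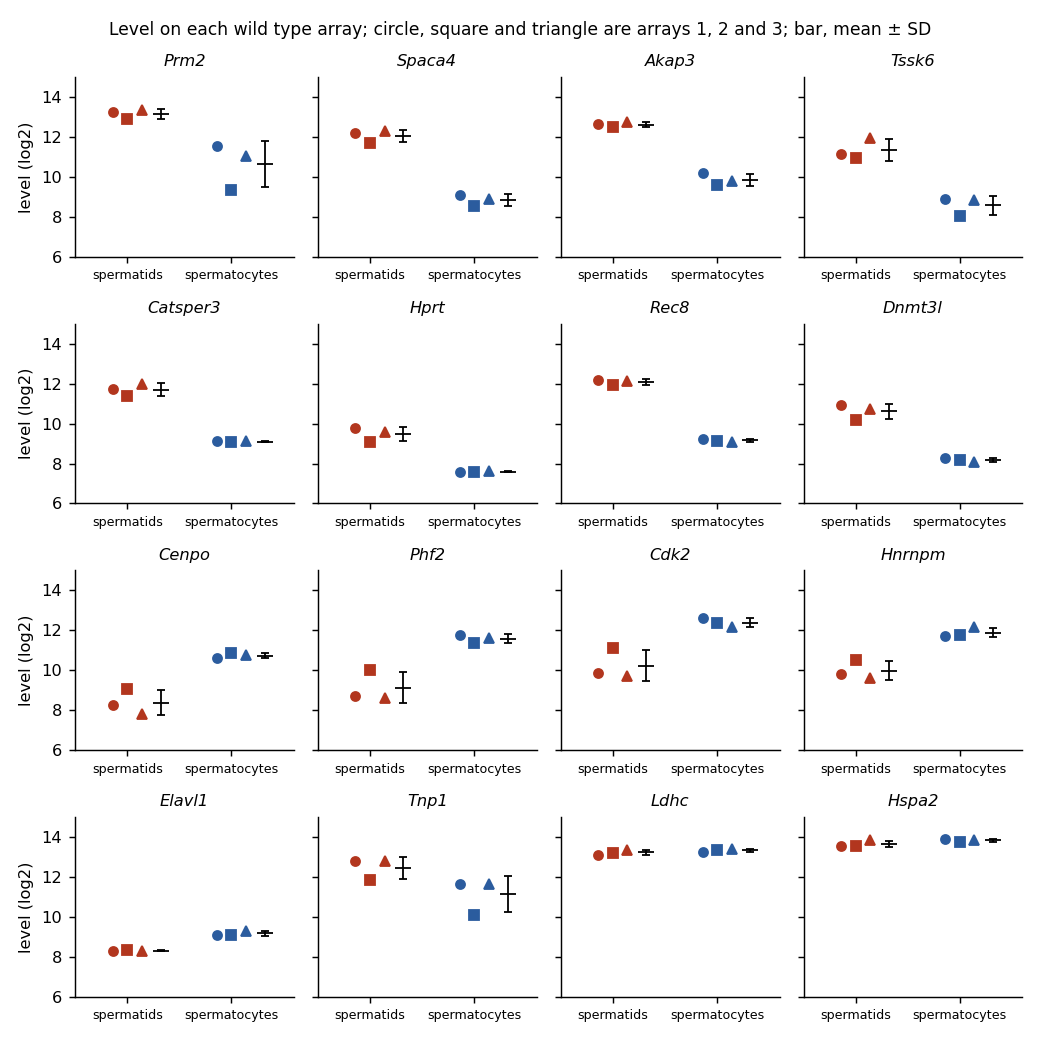
Level (log2, y axis) of 16 genes on each wild type array, spermatids left and spermatocytes right; circle, square and triangle are arrays 1, 2 and 3, and the bar is the mean ± SD of the 3 arrays. Spermatids lie above spermatocytes for *Prm2* to *Dnmt3l*, below for *Cenpo* to *Elavl1*, and the groups overlap for *Ldhc* and *Hspa2*.

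Of 12 genes for testis-specific serine kinases and related proteins tested, 7 were higher and 2 lower, and all 7 higher calls and 1 lower call held. *Tssk6*, whose loss makes male mice sterile, had levels of 11.15, 10.95 and 11.96 in spermatids and 8.87, 8.04 and 8.84 in spermatocytes (2.77 ± 0.38). *Tssk4* rose by 2.81 ± 0.28, *Tssk3* by 2.51 ± 0.20, *Tssk2* by 2.11 ± 0.23, and *Tsks*, a substrate of these kinases, by 2.10 ± 0.20. *Stk33*, another kinase of the list, was lower (-0.81 ± 0.12). Sperm channels and transporters were higher in 10 and lower in 2 of 26. *Catsper3* and *Catsper4*, pore subunits of the calcium channel that drives hyperactivated swimming, rose by 2.60 ± 0.20 and 2.74 ± 0.21. The channel's calcium sensor *Efcab9* rose by 2.35 ± 0.20. Another subunit, *Catsperd*, was lower, at 10.99, 10.87 and 10.93 in spermatids and 11.71, 11.74 and 11.70 in spermatocytes (-0.79 ± 0.15), and *Catsper2* was not called (-0.21, adjusted p = 0.283). The subunits of this one channel thus included members called in opposite directions. The transporter gene *Slc22a14* rose by 2.76 ± 0.13, the water and glycerol channel *Aqp7* by 2.45 ± 0.20, and the calcium entry channel *Orai1* fell by 0.59.

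Energy genes of sperm had 7 increases and no decrease among 21 tested, and all 7 held. *Gapdhs*, the glyceraldehyde phosphate dehydrogenase of sperm, was at 12.33, 11.73 and 12.59 in spermatids and 9.80, 9.11 and 9.63 in spermatocytes (2.70 ± 0.29). The ketone body enzymes *Oxct2a* and *Oxct2b*, which are near copies, rose by 2.56 and 2.69, and *Smcp*, of the mitochondrial capsule, by 2.48 ± 0.28. *Pkm*, a pyruvate kinase of most tissues, rose by 1.89 ± 0.29. *Ldhc*, the germ cell lactate dehydrogenase, was not called, at 13.12, 13.20 and 13.37 in spermatids and 13.27, 13.36 and 13.39 in spermatocytes. *Gpx4*, an abundant selenoprotein of sperm, was also not called (0.13, adjusted p = 0.35). Both were near the top of the scale, where 7 of the 120 probes with a mean of at least 13 were called (2 higher, 5 lower).

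Transcription regulators of the haploid phase were higher in 11 and lower in 2 of 27. *Sox5*, an SRY-related factor, had levels of 13.45, 13.07 and 13.23 in spermatids and 10.93, 10.57 and 10.90 in spermatocytes (2.45 ± 0.17, adjusted p = 0.000216). *Rfx1* rose by 2.38 ± 0.17, *Fhl5*, a coactivator of CREM also known as ACT, by 2.27 ± 0.21, *Klf4* by 1.94 ± 0.36 and the X-linked TFIID subunit gene *Taf7l* by 1.91 ± 0.23. *Tcfl5*, a basic helix-loop-helix factor of the meiotic programme, was at 8.29, 8.48 and 8.00 in spermatids and 9.08, 9.31 and 9.64 in spermatocytes (-1.09 ± 0.15). *Epc1*, of the NuA4 acetylation complex, fell by 0.90. *Rfx2* (-0.30, adjusted p = 0.137) and *Crem* (0.45 ± 0.71, adjusted p = 0.832) were not called by their brightest probes. That probe of *Crem* read 11.70, 11.79 and 11.67 in spermatids and 11.13, 11.51 and 11.15 in spermatocytes, with SDs of 0.06 and 0.21. Its SE is larger because the fit shares its spread with the heterozygous arrays. Of the 5 probes of *Crem*, 2 dimmer ones were called lower (-0.88 ± 0.17 and -0.53 ± 0.10), and none was called higher.

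Genes that handle RNA were called mostly in the lower direction. Of 71 splicing factors and hnRNP proteins, 27 were lower and 1 higher, and 10 of the lower calls held. *Hnrnpm* was at 9.82, 10.50 and 9.63 in spermatids and 11.73, 11.79 and 12.15 in spermatocytes (-1.91 ± 0.36), and *Hnrnpa0* fell by 1.50. The splice site factor *U2af1* fell by 1.33 and *Lsm3*, of the U6 particle, by 1.26. The 1 increase was *Sf3b4* (0.57 ± 0.12). Genes of mRNA storage and translation were lower in 15 and higher in 2 of 51, with 7 and 1 held calls. *Ddx6*, a helicase of storage granules, had levels of 8.27, 8.54 and 8.12 in spermatids and 9.86, 9.88 and 9.62 in spermatocytes (-1.47 ± 0.23). The poly(A)-binding partner *Paip1* fell by 1.63, the decapping factor *Dcp1a* by 1.12, and *Elavl1*, which stabilises transcripts, by 0.87. *Elavl1* had the least scatter of these, at 8.28, 8.36 and 8.31 in spermatids and 9.11, 9.11 and 9.32 in spermatocytes. The RNA-binding protein gene *Msi2* rose by 1.37 ± 0.17. For these 2 lists the share lower, 38.0% and 29.4%, was above the 16.9% of all genes, and the share higher, 1.4% and 3.9%, below the 14.2%.

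Initiation and elongation factors were lower in 19 and higher in 3 of 54, with 11 and 2 held calls. *Eif2b1*, of the exchange factor for eIF2, fell by 1.83 and the helicase gene *Eif4a2* by 1.23. The genes that rose included *Eif4ebp1*, which holds the cap-binding protein (1.67 ± 0.17), and *Eef2k*, the kinase that inactivates elongation factor 2 (1.68 ± 0.17). *Eef2k* was at 8.80, 8.41 and 8.57 in spermatids and 6.95, 6.82 and 6.98 in spermatocytes. Of 71 mitochondrial ribosomal protein genes 25 were lower and 1 higher. Only 8 of the lower calls held, among them *Mrps10* (-1.17 ± 0.22) and *Mrpl44* (-1.13 ± 0.22). *Mrps12* was the exception, at 12.04, 11.74 and 11.98 in spermatids and 10.78, 10.19 and 10.59 in spermatocytes (1.40 ± 0.16). Cytosolic ribosomal proteins, in contrast, had 11 of 69 lower (15.9%) and 2 higher (2.9%), so their share lower was close to that of all genes, and 6 of these 11 calls held.

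**Figure D3:**
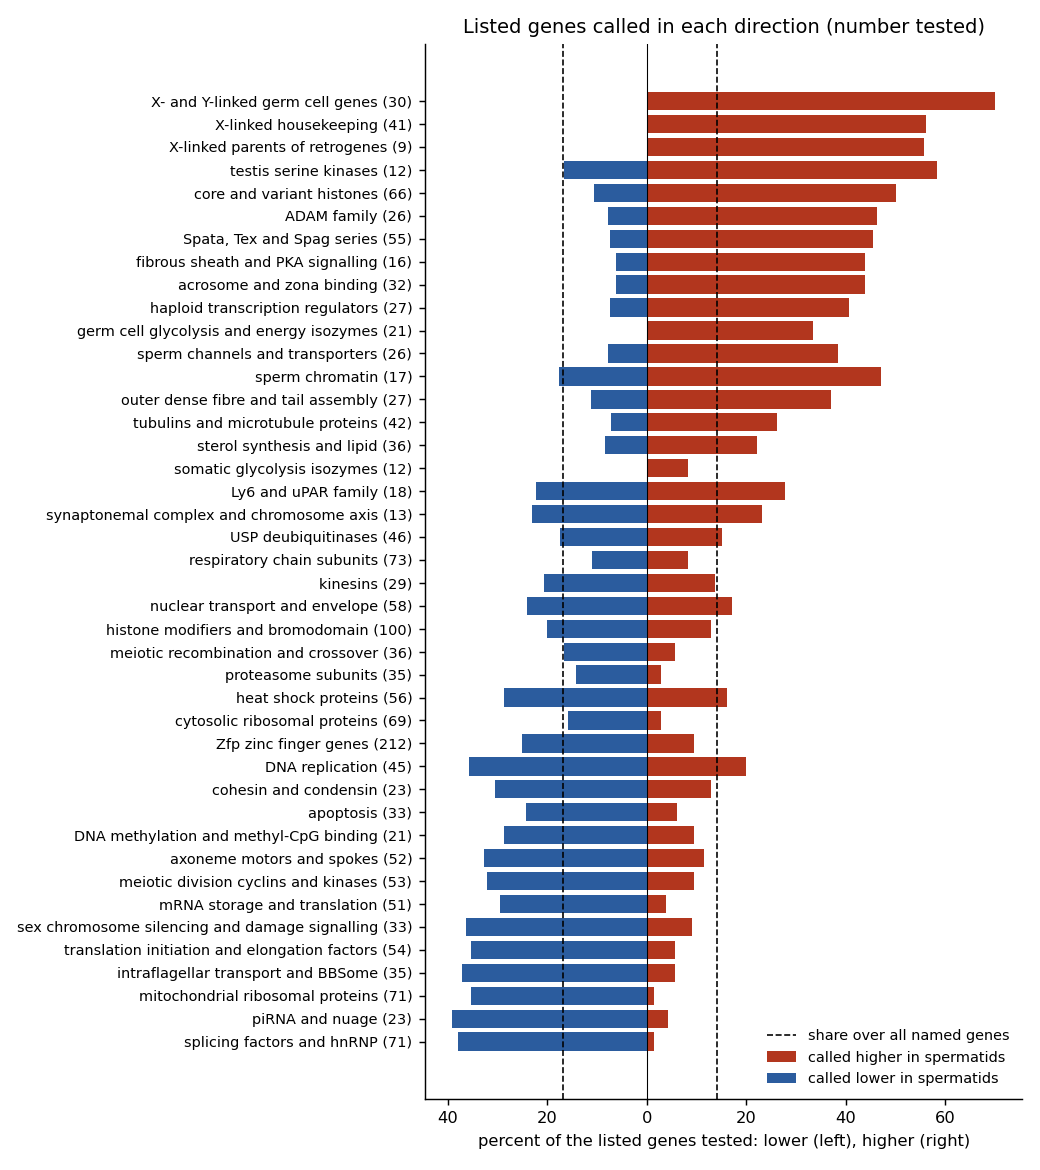
Percent of the tested genes of each list shown that were called higher (right) or lower (left) in wild type spermatids, with the number tested beside the name. Dashed lines mark the shares over all named genes, 14.2% higher and 16.9% lower. Marker lists and some others, among them olfactory receptors, keratins, solute carriers, Rab GTPases, autosomal retrogenes and sperm-egg fusion, are not drawn. Sex-linked, kinase, histone and acrosome lists extend to the right, and splicing, piRNA, mitochondrial ribosome and intraflagellar transport lists to the left.

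The piRNA pathway, which silences transposons in germ cells, was lower in 9 and higher in 1 of 23 genes. *Pld6*, a nuclease of the mitochondrial surface that shapes piRNA ends, had levels of 8.34, 8.99 and 7.69 in spermatids and 10.40, 10.49 and 10.49 in spermatocytes (-2.12 ± 0.29, adjusted p = 0.00334). *Tdrd3* fell by 1.14. *Tdrd5*, a tudor protein of the nuage, was at 7.38, 8.37 and 7.22 in spermatids and 9.69, 10.39 and 10.15 in spermatocytes. Its call (-2.42 ± 0.51) ended without spermatocyte array 2 or 3 or spermatid array 1 or 3, with a largest adjusted p of 0.0635, and 3 of the 9 lower calls of the list held.

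Meiotic genes were mixed. The synaptonemal complex and chromosome axis list had 3 genes higher and 3 lower of the 13 that passed the filter, out of 26 listed, with 1 and 3 held calls. *Rec8*, the meiotic cohesin subunit that holds sister chromatids, was higher in spermatids, at 12.20, 11.91 and 12.13 against 9.25, 9.14 and 9.09 in spermatocytes (2.92 ± 0.14, adjusted p = 6.46e-05). Its partner *Stag3* went the other way, at 11.48, 11.31 and 11.55 in spermatids and 11.96, 12.06 and 12.23 in spermatocytes (-0.64 ± 0.11). The ubiquitin ligase subunit *Skp1*, which acts at the complex, fell by 0.97 and *Tex14*, of the intercellular bridge, by 0.56. Recombination and crossover genes were lower in 6 (16.7%) and higher in 2 of 36, a share lower close to that of all genes, and 3 of the lower but none of the higher calls held. *Bard1*, the partner of BRCA1, fell by 1.26 and *Rad50* by 0.60. Sex chromosome silencing and damage signalling genes were lower in 12 and higher in 3 of 33. Of these, 7 lower calls and no higher call held, and *Rad1*, of the checkpoint clamp, was at 7.12, 7.43 and 7.01 in spermatids and 8.15, 8.20 and 8.52 in spermatocytes (-1.10 ± 0.14).

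Cell cycle genes were called in both directions. Of 53 genes for the meiotic divisions, 17 were lower and 5 higher, with 10 and 4 held calls. *Cdk2*, the kinase of the meiotic telomere and crossover sites, had levels of 9.86, 11.11 and 9.73 in spermatids and 12.60, 12.38 and 12.15 in spermatocytes, and all 4 of its probes were called lower. The call of its brightest probe (-2.14 ± 0.52) ended without any 1 of the spermatocyte arrays of either genotype or of spermatid arrays 1 and 3, with a largest adjusted p of 0.103. *Cdk1*, the kinase of entry into division, was at 9.39, 9.61 and 8.51 in spermatids and 10.38, 10.23 and 10.57 in spermatocytes (-1.22 ± 0.25), a call that ended without spermatocyte array 3 (adjusted p = 0.0551). The inhibitor gene *Cdkn2d* fell by 1.53. Among the 5 that rose, *Ccnd3*, a D cyclin of the G1 phase, rose by 2.42 ± 0.33, *Ccnd1* by 1.35 ± 0.17, and the phosphatase genes *Cdc25c* and *Cdc25a* by 1.32 ± 0.23 and 0.97 ± 0.15. Of 45 DNA replication genes 9 were higher (20%) and 16 lower (35.6%). The higher calls held in 7, but the lower ones in only 4. The replicative helicase subunit *Mcm5* was at 10.72, 10.05 and 10.09 in spermatids and 8.90, 8.72 and 8.79 in spermatocytes (1.48 ± 0.21). *Mcm4* and *Mcm2* rose by 1.46 ± 0.18 and 1.22 ± 0.16, the flap nuclease gene *Fen1* by 1.64 ± 0.15, and the S phase factor *E2f1* by 0.80 ± 0.09, while the polymerase subunit *Pold3* fell by 1.17. Round spermatids do not replicate DNA. The spermatogonial markers, of which 6 were higher in the same fraction and 2 of these calls held, are given above, and their part in these increases was not tested.

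Chromatin regulators were called about as often as all genes, with 13 of 100 histone modifier and bromodomain genes higher (13%) and 20 lower (20%), and 10 calls held in each direction. *Cdyl*, a chromodomain protein of late germ cells, had levels of 10.82, 10.34 and 10.34 in spermatids and 8.18, 7.74 and 8.02 in spermatocytes (2.52 ± 0.34). The deacetylase genes *Hdac11* and *Hdac5* rose by 2.21 ± 0.34 and 2.02 ± 0.21 and the acetyltransferase gene *Kat2b* by 2.02 ± 0.30. Another acetyltransferase gene, *Kat7*, fell by 1.63 and the remodelling ATPase gene *Smarca4* by 1.42. Among DNA methylation and methyl-CpG binding genes, 2 of 21 were higher and 6 lower, with 2 and 3 held calls. *Dnmt3l*, the cofactor of de novo methylation for which the colony is mutant, was at 10.91, 10.19 and 10.75 in spermatids and 8.27, 8.17 and 8.10 in spermatocytes on its 1 probe (2.44 ± 0.28, adjusted p = 0.00171). The difference between the heterozygous fractions was 1.73. The paper places its *Dnmt3L* array probe in the last exon, which the non-coding alternative transcripts share with the coding one. The coding and non-coding forms therefore cannot be told apart here. The glycosylase gene *Mbd4* rose by 1.47 ± 0.24. The maintenance methyltransferase gene *Dnmt1* was at 7.07, 7.31 and 7.04 in spermatids and 8.04, 7.98 and 8.02 in spermatocytes (-0.88 ± 0.13), and its partner *Uhrf1* fell by 1.14 and the repressor subunit *Mbd3* by 0.96.

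The X chromosome stood apart from the autosomes. Of 585 X-linked probes tested, 218 (37.3%) were higher in spermatids and 2 (0.3%) lower, whereas 11.1% of 20352 autosomal probes were higher and 17.5% lower. The share higher on single autosomes ran from 9.3% on chromosome 2 to 14.2% on chromosome 13. The median X-linked probe was at 7.17 in spermatids and 6.94 in spermatocytes, both close to the level at which a probe may hold no signal, and the median difference was 0.25, against -0.05 for autosomal probes. The count of higher X-linked probes was 245 without spermatid array 2, and fell to 120 without spermatid array 1, 115 without spermatocyte array 2 and 137 without spermatocyte array 3. With arrays centred on their autosomal median it was 232. The filter on dim probes used the mean of all arrays, so a probe high in 1 cell type alone could pass it. Without the filter, 197 of 1107 X-linked probes were higher and 4 lower. Of 31652 autosomal probes, 1958 were then higher and 3008 lower. Of 41 widely expressed X-linked genes, 23 were higher and none lower, and 13 of these calls held. *Hprt*, a purine salvage enzyme, had levels of 9.77, 9.09 and 9.58 in spermatids and 7.57, 7.57 and 7.63 in spermatocytes (1.89 ± 0.17, adjusted p = 0.000692). *Emd*, of the inner nuclear membrane, rose by 2.08 ± 0.28, the lysosomal gene *Lamp2* by 1.80 ± 0.24, and the Mediator subunit *Med12* by 1.59 ± 0.18. X-linked parents of autosomal retrogenes, the copies that serve germ cells while the X is silent, were higher in 5 of 9, all held. Among these the ribosomal protein genes *Rpl36a* and *Rpl39* rose by 2.76 ± 0.40 and 2.01 ± 0.37, the cleavage factor *Cstf2* by 1.18 ± 0.16, *Zfx* by 0.78 ± 0.14 and *Utp14a* by 0.43 ± 0.08. None of 6 autosomal retrogenes was called. Germ cell genes of the X and Y were higher in 21 of 30, of which 17 held, and lower in none. The Y-linked *Ssty1* was at 11.54, 11.03 and 11.60 in spermatids and 8.58, 8.29 and 8.39 in spermatocytes (2.97 ± 0.33), and the X-linked *Tex13a*, *Cypt3*, *Usp26* and *Actrt1* rose by 2.75, 2.46, 2.27 and 2.19.

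**Figure D4:**
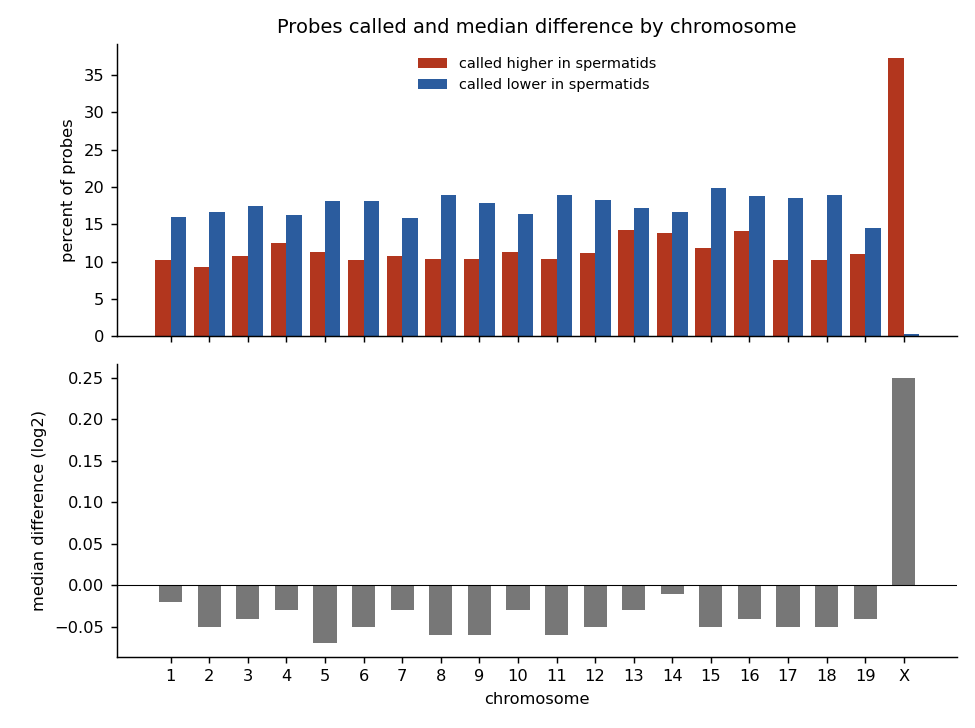
Percent of tested probes called higher (left bar of each pair) or lower (right bar) in wild type spermatids, and below it the median difference (log2), by chromosome (x axis). The X chromosome has 37.3% higher and 0.3% lower and a median of 0.25, while every autosome has more probes lower than higher and a median under 0.

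Several cellular systems had members called in opposite directions. Heat shock proteins were higher in 9 (16.1%) and lower in 16 (28.6%) of 56, and 5 calls held in each direction. *Hspa1l*, a germ cell HSP70, had levels of 11.40, 11.12 and 11.97 in spermatids and 9.33, 8.56 and 9.21 in spermatocytes (2.46 ± 0.34), and the co-chaperone genes *Dnajc5b* and *Dnajb13* rose by 2.30 ± 0.15 and 1.05 ± 0.15. *Cct8*, of the folding ring for tubulin and actin, fell by 0.91 and *Dnajc8* by 0.95. *Hspa2*, the HSP70 that spermatocytes need, was at 13.58, 13.58 and 13.84 in spermatids and 13.92, 13.74 and 13.84 in spermatocytes, at the top of the scale, and was not called (adjusted p = 0.273). Nuclear transport and envelope genes were higher in 10 (17.2%) and lower in 14 (24.1%) of 58, with 9 held calls each way. *Spag4*, a SUN protein of the spermatid, was at 12.96, 13.24 and 13.27 in spermatids and 11.26, 11.11 and 11.11 in spermatocytes (2.00 ± 0.11), the pore membrane gene *Nup210* rose by 1.71 ± 0.16 and the lamin gene *Lmnb2* by 1.65 ± 0.22. The pore scaffold gene *Nup107* fell by 1.37, and the import receptors *Ipo11* and *Ranbp17* by 1.25 and 1.08.

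Tubulin and microtubule genes were higher in 11 and lower in 3 of 42, with 7 and 2 held calls. *Ttll10* and *Ttll9*, which add glycine or glutamate chains to tubulin and related proteins, rose by 2.59 ± 0.38 and 2.30 ± 0.28. The microtubule-associated protein gene *Map2* was at 11.04, 10.55 and 11.24 in spermatids and 8.45, 8.21 and 8.48 in spermatocytes, and the alpha tubulin *Tuba8* rose by 1.87 ± 0.28. *Tube1*, the epsilon tubulin of centrioles, fell by 0.74 and the depolymerising protein gene *Stmn1* by 0.37. *Kif2b*, a microtubule-depolymerising kinesin, rose by 2.22 ± 0.19. Kinesins as a family had 4 of 29 higher (13.8%) and 6 lower (20.7%), close to the shares of all genes, with 3 and 1 held calls. Sterol synthesis and lipid genes were higher in 8 and lower in 3 of 36, with 3 held increases and 1 held decrease. *Cyp51*, a demethylase of sterol synthesis, had levels of 10.89, 10.62 and 11.13 in spermatids and 8.77, 8.57 and 8.70 in spermatocytes (2.20 ± 0.24), the squalene epoxidase gene *Sqle* rose by 1.23 ± 0.15 and the sphingomyelin synthase gene *Sgms2* by 2.11 ± 0.27. Apoptosis genes were lower in 8 and higher in 2 of 33, with 7 and 1 held calls. The survival gene *Mcl1* was at 8.55, 8.86 and 8.79 in spermatids and 9.73, 10.18 and 9.98 in spermatocytes (-1.23 ± 0.19). *Bcl2l1*, also pro-survival, and the pro-apoptotic *Bad* and *Casp9* fell by 0.69, 0.64 and 0.69, and *Mdm2*, the ligase of p53, by 0.80. *Casp1*, an inflammatory caspase of macrophages, rose by 1.23 ± 0.18.

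Other gene families gave few further patterns. Deubiquitinase genes of the USP family were higher in 7 and lower in 8 of 46, with 4 and 5 held calls, and *Usp50* rose by 2.58 ± 0.31 while *Usp30*, a mitochondrial member, fell by 0.98. Zfp zinc finger genes were lower in 53 (25.0%) and higher in 20 (9.4%) of 212, of which 32 and 12 calls held, and *Zfp956* fell by 1.62 while *Zfp451* rose by 2.15. Genes of the Spata, Tex and Spag series, which were named from their testis expression, were higher in 25 of 55 and lower in 4, with 19 and 2 held calls. Olfactory receptor genes were seldom called, with 6 of the 317 that passed the filter higher and 1 lower, and the 1 held call was that of *Olfr701* (2.19 ± 0.28). Keratin and keratin-associated genes were higher in 2 and lower in 3 of 32, with 2 held calls each way. Among them *Krt88* rose by 2.66 ± 0.30, with levels of 10.79, 10.11 and 10.85 in spermatids and 8.04, 7.76 and 7.95 in spermatocytes.

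For 44 genes, probes were called in opposite directions, 48 probes higher and 51 lower, and all 99 had the same sign between the heterozygous fractions. In 3 genes the probes passed 1 in size in each direction. Of these, *Tnks*, the poly(ADP-ribose) polymerase tankyrase, had 1 probe with means of 10.57 in spermatids and 8.60 in spermatocytes (1.97) and another with 8.20 in spermatids and 9.63 in spermatocytes (-1.43). *Bcl11a*, a zinc finger repressor, had differences of 1.21 and -1.16, and *4930430F08Rik* of 1.96 and -1.29. *Actb*, the cytoplasmic beta actin that is often used to scale measurements, had 1 probe at 13.09 in spermatids and 12.51 in spermatocytes and another at 6.87 in spermatids and 8.29 in spermatocytes. For such genes a single direction depends on the probe, and the gene counts above rest on the brightest.

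The heterozygous fractions gave a second, smaller set of arrays of the same cell types. Between heterozygous spermatids and heterozygous spermatocytes 4983 probes (17.8%) were called, 8.65% higher and 9.15% lower. Of the probes called between the wild type fractions, 2157 of the higher (67.3%) and 2234 of the lower (51.5%) were called in the same direction between the heterozygous fractions. The sign was shared by 3203 of the 3207 higher and 4326 of the 4339 lower probes. The median difference of the higher probes was 0.95 in heterozygous and 1.09 in wild type fractions, and of the lower probes -0.58 in heterozygous and -0.71 in wild type fractions. The samples are separate, but they share the chips, the elutriation and the estimate of the spread. The test of the genotype difference in these changes (the interaction in limma) called none of the 27986 probes, with a smallest adjusted p of 0.9999. An unadjusted p under 0.05 was found for 566 probes, a smaller share of the probes than 0.05. The heterozygous spermatocytes had only 2 arrays, which limits this test.

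**Figure D5:**
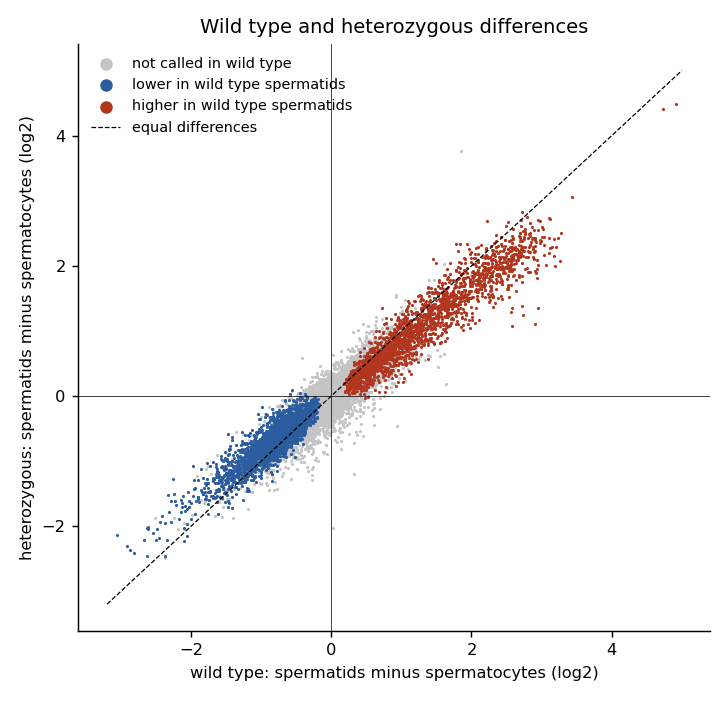
Difference between spermatids and spermatocytes (log2) in heterozygous mice (y axis) against the same difference in wild type mice (x axis), 1 point for each named gene, coloured by the call in wild type; the dashed line marks equal differences. Called genes lie almost all on the same side of 0 in both genotypes.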

How the data were processed

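RNA of elutriated testis cells was measured on Illumina Mouse WG-6 version 1.1 BeadChips. Per the labels and the methods, the authors took probe profiles from BeadStudio into the R package lumi (their versions are not given in the sources used here). The deposited log2 values had the mean of the negative controls subtracted and were variance-stabilised and quantile normalised, so the sorted columns differ by at most 0.00873. Another deposited table, with 22 columns that match no label, was not used, so detection p-values were not available to the filter.

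Probes were named through the platform annotation (32794 of 46643 with 1 symbol), and chromosomes and promoters came from RefSeq GRCm38.p6. Probes were ranked by their mean across the 11 arrays, the dimmest 40% were dropped, and 27986 were kept. Means of 4 groups were fitted with limma 3.58.1 in R 4.3.3 (7 residual and 1.89 prior degrees of freedom), with Benjamini-Hochberg adjustment at 0.05 over all probes and 4 contrasts together, as in the methods. No set test was run. A gene is shown by its probe with the highest mean. The arrays' number limits the precision, and the median SD of a probe was 0.0993 among spermatid and 0.0972 among spermatocyte arrays.

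The text names members by fixed rules: the 20 largest increases and decreases with arrays that do not overlap, up to 5 called members of a list in each direction with the largest change and up to 3 not called with the highest mean, and *Dnmt3l*. Within these, genes whose calls held were preferred after their values were seen, and some that the rule gives are left out. *Tnks*, *Bcl11a*, 4930430F08Rik and *Actb* were chosen after their values were seen. The members and lists were chosen with earlier results of these data known. Alternatives were other filters, adjustments, priors, weights, centring, probe summaries (for list counts and single genes), the 6 wild type arrays alone, a replicate block and leaving out each array.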

Additional observations from a re-analysis of the deposited data

How the results depend on the processing

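The 7546 calls came to 13406 with array weights, whose estimation stopped before it converged (5807 higher, 7599 lower) and to 2808 where a log2 difference of at least 1 in size was also required (1739 higher, 1069 lower). Leaving out each array gave 4241 to 9128 calls, 1945 to 3874 of them higher and 2270 to 5254 lower. For X-linked probes only the 6 wild type arrays were left out in turn, which gave 115 to 245 higher and 0 to 1 lower. X-linked probes called lower, 2 in the main analysis, were 4 without the filter and 1 with arrays centred on their autosomal median. No filter (6505 calls), a filter of 60% (7422), adjustment within the contrast (10025), only the wild type arrays (10188), trended and robust priors (8445) and centring on the median (7546) stayed within 1.5 times the main count. Replicate numbers showed no clear pairing of the samples, but 3 arrays in each cell type cannot exclude that preparations share mice. Deviations of equally numbered preparations correlated at -0.0405, 0.265 and -0.124, and 1 of 3 spermatid arrays correlated best with its own number. With the number as a block, the fit of the 6 wild type arrays gave 9258 calls (3945 higher, 5313 lower). The 185 genes named kept the direction of their brightest probe under the filters (184 with 60% of probes left out) and adjustment. This was also so for the fits, priors, weights, median centring and left-out arrays above. Of the named genes, at most 5 lost the call when an array was left out, and 3 without the filter. Genes whose calls held were preferred for naming, so these counts do not describe the calls at large. Among all genes called by their brightest probe, 58.6% of the higher and 49.2% of the lower held. With the mean of all probes of a gene, an alternative chosen after seeing the data, *Bcl2l1* lost its call (-0.30), and *Crem* (-0.19) and *Odf2* (-0.01), neither of them called, changed sign. The cause of these shifts was not tested. Counts of list members were the least stable values, since the lowest count over the wild type arrays left out was within 1.5 times the main one for 57 of 118 list counts. Low or saturated signal limits what could be seen in dim probes and in those near the top of the scale.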

Other observations

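Some groups moved little or unevenly. Respiratory chain subunits were called higher in 6 and lower in 8 of 73 genes tested, of which 0 higher and 1 lower call stayed whichever array was left out. Proteasome subunits were lower in 5 and higher in 1 of 35 (3 and 1 held), ubiquitin-conjugating enzymes lower in 4 and higher in 1 of 27 (none held), and Rab GTPases lower in 7 and higher in 2 of 46 (4 and 0 held). Solute carriers were split, with 37 of 251 higher (14.7%) and 30 lower (12.0%), close to the shares of all named genes, and 19 and 12 of these calls held. Glycolytic isozymes of somatic cells had 1 of 12 higher, which did not hold, and none lower, although the median difference over the tested members was 0.54. That list does not include *Pkm*, the pyruvate kinase of most tissues, which rose by 1.89 with a held call. Cohesin and condensin subunits other than those described were part of a list with 7 of 23 lower and 3 higher, of which 3 and 1 held.

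Markers of further testis cells gave few calls. None of 19 Sertoli cell markers and none of 8 endothelial markers was called by limma at an adjusted p of 0.05, and 1 of 11 Leydig cell markers was lower. Sertoli cell markers had mean levels of 8.50, 8.33 and 8.99 on the spermatid arrays and 8.92, 8.38 and 7.71 on the spermatocyte arrays, so that the preparations of a cell type differed by more than the cell types did. Genes of the response to tissue dissociation were higher in 2 of 15 (1 held) and lower in none, at means of 9.41, 8.84 and 9.76 in spermatids and 9.04, 8.75 and 8.51 in spermatocytes.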
